A study of Mus musculus with 10 samples.

Results

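Srebf1, Srebf2, Scap, Insig1, Insig2, Hmgcs1 and Cyp46a1 encode the machinery that sets how much cholesterol a cell makes and one enzyme by which neurons dispose of it. They were picked by gene symbol as the rows for control of the sterol regulatory element binding proteins (SREBPs), for sterol synthesis and for neuronal cholesterol removal. All 7 were in the table of 18464 genes, with 1 row each, and all 7 passed the filter on low counts. RNA was measured in ventral midbrain, labelled SNpc/VTA, of naïve Aldh1l1-NuTRAP mice, the strain shared by every library. The 5 astrocyte fraction libraries, titled posfxn, hold RNA pulled down on tagged ribosomes by translating ribosome affinity purification (TRAP), and the 5 input libraries hold RNA of all cell types before the pull-down. In this strain the ribosome tag is carried by cells marked through Aldh1l1, mostly astrocytes in adult brain. The fraction is thus defined by that genetic label and not by a cell sort. Each title holds 1 of the numbers 88, 92, 976, 981 and 982, and each number stands on 1 library of each group, in which order values are given below. Age and sex are not stated, nor whether the numbers are separate animals, so p-values measure the spread between these libraries.

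SREBPs are transcription factors made as precursors in the membrane of the endoplasmic reticulum. Scap escorts them to the Golgi, where proteases release the active part, and Insig proteins hold Scap back when sterols are plentiful. SREBP-2 mainly drives cholesterol synthesis, SREBP-1 mainly drives fatty acid synthesis, and the liver X receptors (LXRs), which sense oxysterols, raise Srebf1 transcription. The adult brain makes its own cholesterol because lipoproteins do not cross the blood-brain barrier. Astrocytes are a main site of that synthesis and export cholesterol in lipoproteins, while neurons turn surplus cholesterol into an oxysterol through Cyp46a1, which lets it leave the brain.

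The marker genes separated the groups as the labels describe, with limits that matter here. Aldh1l1 had a mean of 814 ± 92.3 CPM in the astrocyte fraction and 99.6 ± 7.65 CPM in the input (SD, n = 5 each; CPM is the expected count scaled by TMM library size). All 12 astrocyte markers were higher in the fraction (median log2 fold change 3.05), while the 12 pan-neuronal markers, 10 markers of mature oligodendrocytes and 10 of microglia were all lower. Of 8 endothelial markers 3 were lower and 5 not called, and none of 6 ependymal and choroid plexus markers was called. The median log2 fold change of these 6 was 1.48. Clic6 (2.66), Kl (2.15), Ttr (1.90) and Foxj1 (1.05) were above 0, and Tmem212 (-0.65) and Ccdc153 (-0.66) below. Libraries of a group differed widely, with an SE of 3.58 for Ttr, so the test cannot decide whether the fraction was enriched in this RNA. By title number the markers also differed: Ttr was higher in the fraction at every number, and Tmem212, at low counts, was lower at every number. Kl was lower in the fraction at the numbers 92 and 981 and higher at the others. Neuronal RNA was still present in the fraction, where the 12 pan-neuronal markers summed to 1933 to 2411 CPM, against 7971 to 9124 CPM in the input. The fraction library 92 was shallow, with 3845554 counts against 24479136 to 26924406 in the other 4 fraction libraries and 21812193 to 30878894 in the input. The numbers 976 and 982 stood apart by the choroid plexus gene Ttr, at 11036 and 2312 CPM in the fraction and 2965 and 604 CPM in the input, against at most 11.6 CPM in the other fraction libraries and 2.70 CPM in the other input libraries. Without those 4 libraries all 7 genes kept their call and direction, and without both libraries of number 92 all but Insig2 did.

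Of the 7 genes, 6 passed the test, against 70.6% of the 17672 tested genes: 5 were higher in the astrocyte fraction (33.1% of tested genes were) and 1 was lower (37.5% were). Srebf1 was the most enriched, at 4.37-fold, and its log2 fold change lay above that of 95.2% of tested genes. Insig1, Hmgcs1, Scap and Srebf2 were enriched between 1.39-fold and 1.77-fold. Cyp46a1 stood at 26.8% of its input level, and Insig2 did not pass the test. The groups did not overlap for 6 of the 7 genes, against 58.3% of tested genes, with the fraction above for 5 (27.2% of tested genes) and below for 1 (31.1%). The median log2 fold change was 0.66 over the 7 genes and -0.06 over all tested genes. Calls are from edgeR's quasi-likelihood test at a Benjamini-Hochberg adjusted p under 0.05 over all tested genes, log2 fold changes are fraction over input and their errors are SE. A difference between fraction and input is a difference in a gene's share of RNA, and in bulk RNA fewer cells of a type and less RNA per cell cannot be told apart. As only the fraction was pulled down on ribosomes, a difference in ribosome association cannot be told apart from these either.

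**Figure D1:**
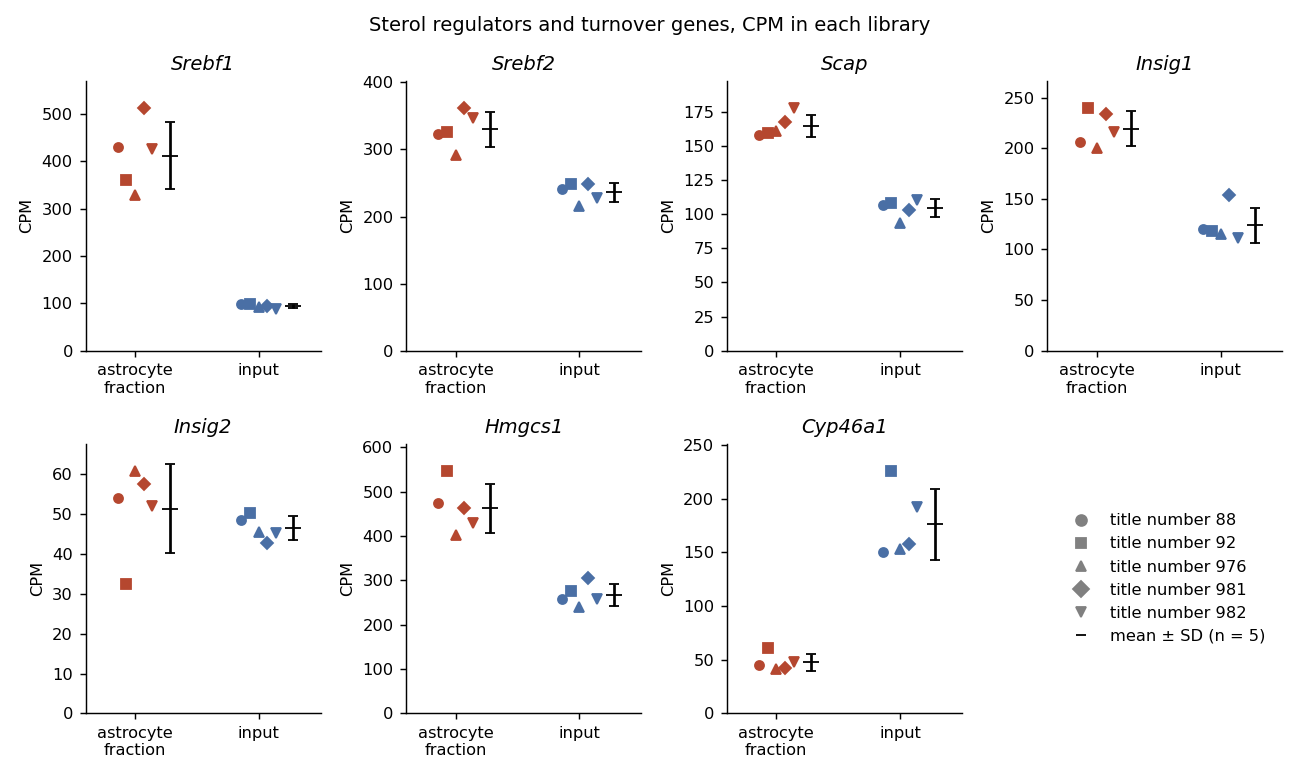
CPM of the 7 genes in each library (points, shaped by title number), with the mean ± SD of each group (bars, n = 5); each panel has its own axis from 0. The fraction libraries of Srebf1 lie between 329 and 513 CPM, all above the input libraries, those of Cyp46a1 lie between 41.6 and 61.3 CPM, all below them, and those of Insig2 overlap the input.

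Srebf1 encodes the SREBP-1 proteins, the lipogenic arm of the family (ENSMUSG00000020538, mm10 chr11:60199089-60222581, minus strand, protein coding). It had 431, 361, 329, 513 and 427 CPM in the astrocyte fraction, against 99.7, 98.2, 92.1, 93.8 and 88.0 CPM in the input. Every fraction library lay above every input library, and the fraction libraries varied far more among themselves than the input libraries did. The means were 412 ± 71.1 CPM in the fraction and 94.4 ± 4.74 CPM in the input (SD, n = 5 each), and the log2 fold change was 2.13 ± 0.12 (edgeR adjusted p = 2.36e-09). Between libraries of the same number the fraction was 3.57-fold to 5.47-fold higher. Even so, all 12 astrocyte markers had a higher log2 fold change than Srebf1. The annotation holds 12 transcripts of the gene, and the table gives 1 row per gene, so SREBP-1a and SREBP-1c are not told apart. Of its exon bases, 1.93% are also covered on the opposite strand by Rai1, whose own log2 fold change was -0.94.

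RefSeq gives 3 start sites for Srebf1, and the 250 bases before start 3 are shown because they hold an LXR-type motif (GRCm38.p6 chr11:60210472-60210721, minus strand). Capitals mark the DR4 match, a pair of direct repeats with a spacer, which here lies on the reverse strand of the sequence as printed.
Srebf1, start 3: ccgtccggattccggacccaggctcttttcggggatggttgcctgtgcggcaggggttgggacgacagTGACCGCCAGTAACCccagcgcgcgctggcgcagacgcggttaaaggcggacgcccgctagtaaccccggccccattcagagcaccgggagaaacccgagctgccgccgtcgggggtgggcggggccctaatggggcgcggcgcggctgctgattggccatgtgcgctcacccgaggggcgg
The DR4 letters occur in 0.718% of the 32851 RefSeq promoter windows of 300 bases (250 before the start and 50 after it, both strands searched). A match of letters describes the sequence and shows no binding.

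Srebf2 encodes SREBP-2, the main activator of cholesterol synthesis genes (ENSMUSG00000022463, mm10 chr15:82147266-82205376, plus strand, protein coding). It had 323, 326, 292, 362 and 347 CPM in the astrocyte fraction, against 242, 248, 216, 249 and 228 CPM in the input. All 5 fraction libraries lay above all 5 input libraries, by a margin much smaller than for Srebf1. The means were 329.8 ± 26.7 CPM in the fraction and 237 ± 14.2 CPM in the input (SD, n = 5 each), a 1.39-fold difference and a log2 fold change of 0.48 ± 0.07 (edgeR adjusted p = 6.23e-05). The size of this difference depends on the scaling, as the log2 fold change was 0.19 (adjusted p = 0.0191) with libraries scaled by total counts alone. That scaling moves the median of all tested genes to -0.34, and the share of called genes that were higher in the fraction to 34.0%, against 46.9% with TMM scaling.

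The ratio of Srebf1 to Srebf2 within a library needs no scaling between libraries. Its log2 value was 0.42, 0.15, 0.18, 0.50 and 0.30 in the astrocyte fraction, against -1.28, -1.34, -1.23, -1.41 and -1.37 in the input. Counts of Srebf1 exceeded those of Srebf2 in all 5 fraction libraries and were below them in all 5 input libraries. The mean log2 ratio was 0.31 ± 0.15 in the fraction and -1.33 ± 0.07 in the input (SD, n = 5 each). The difference of 1.63 ± 0.08 (SE), or 3.10-fold, had a two-sided exact permutation p of 0.00794, the smallest that 5 against 5 libraries allow, and 0.0159 after Benjamini-Hochberg adjustment over the 2 ratios tested. With the title numbers as pairs, the exact sign-flip p was 0.0625, the smallest that 5 pairs can give, with all 5 pairs in the same direction.

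Scap encodes the escort protein that carries SREBP precursors from the endoplasmic reticulum to the Golgi (ENSMUSG00000032485, mm10 chr9:110333288-110384950, plus strand, protein coding). It had 158, 159.5, 161, 167 and 178 CPM in the astrocyte fraction, against 107, 108, 93.5, 103 and 110.2 CPM in the input. The groups did not overlap, and both were tight. The means were 165 ± 8.19 CPM in the fraction and 104 ± 6.69 CPM in the input (SD, n = 5 each), with a log2 fold change of 0.66 ± 0.05 (edgeR adjusted p = 1.64e-06). A gene on the opposite strand, 5830462I19Rik, shares 13.2% of the exon bases of Scap and has no row of its own in the table; as the strand setting of the counting is not given, reads of both strands cannot be told apart there.

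Insig1 and Insig2 encode the membrane proteins that retain Scap when sterols are high, and Insig1 is itself an SREBP target. Insig1 (ENSMUSG00000045294, mm10 chr5:28071363-28078662, plus strand, protein coding) had 206, 239.7, 201, 234 and 216 CPM in the astrocyte fraction, against 120.0, 119, 115, 154 and 111 CPM in the input. The input library 981 stood above the other 4 input libraries and still below every fraction library. The means were 219 ± 17.2 CPM in the fraction and 124 ± 17.3 CPM in the input (SD, n = 5 each), with a log2 fold change of 0.82 ± 0.10 (edgeR adjusted p = 5.18e-06).

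Insig2 (ENSMUSG00000003721, mm10 chr1:121304353-121332589, minus strand, protein coding) had 54.05, 32.4, 60.9, 57.6 and 52.1 CPM in the astrocyte fraction, against 48.6, 50.3, 45.4, 42.9 and 45.4 CPM in the input. The fraction was higher at 4 of the 5 numbers and lower at number 92, so the groups overlapped. The means were 51.4 ± 11.2 CPM in the fraction and 46.5 ± 2.95 CPM in the input (SD, n = 5 each), with a log2 fold change of 0.16 ± 0.17 (edgeR adjusted p = 0.293). The low value in fraction library 92 rests on 110 counts, with a 95% exact Poisson interval of 26.6 to 39.0 CPM that covers counting error only and lies below the other 4 fraction libraries. Without that library the log2 fold change was 0.28 (adjusted p = 0.00435), so 1 library decides the call. Scaled to total counts, the log2 fold change was -0.12 (adjusted p = 0.450). The part of the shallow depth of library 92 in its low value was not tested.

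The log2 ratio of Insig1 to Insig2 was 1.93, 2.89, 1.72, 2.02 and 2.05 in the astrocyte fraction, against 1.31, 1.24, 1.34, 1.85 and 1.29 in the input. The groups overlapped, as the input library 981 lay above the fraction library 976, and the fraction was higher at every number. The means were 2.12 ± 0.45 in the fraction and 1.40 ± 0.25 in the input (SD, n = 5 each). The difference was 0.72 ± 0.23 (SE), or 1.64-fold (two-sided exact permutation p = 0.0159, adjusted p = 0.0159). Without fraction library 92 it was 0.53, and with the title numbers as pairs the exact sign-flip p was 0.0625, again the smallest possible.

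**Figure D2:**
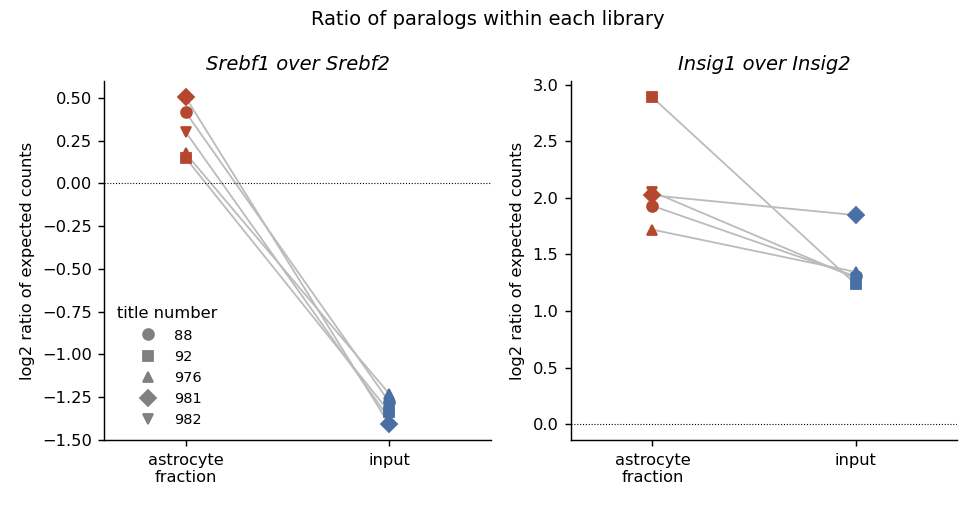
Log2 ratio of expected counts of Srebf1 over Srebf2 (left) and Insig1 over Insig2 (right) in each library, with lines joining libraries of the same title number and a dotted line at equal counts. Srebf1 over Srebf2 lies above 0 in every fraction library (0.15 to 0.50) and below it in every input library, while the Insig ratios of the groups overlap.

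Hmgcs1 encodes the cytosolic synthase that makes HMG-CoA, the substrate of the committed step of sterol synthesis, and is a classic SREBP target (ENSMUSG00000093930, mm10 chr13:119690379-119708260, plus strand, protein coding). It had 475, 547, 402, 463 and 429 CPM in the astrocyte fraction, against 258, 275, 239, 304 and 259 CPM in the input. The groups did not overlap, and the input library 981 was again the highest of its group. The means were 463 ± 55.2 CPM in the fraction and 267 ± 24.3 CPM in the input (SD, n = 5 each), with a log2 fold change of 0.79 ± 0.09 (edgeR adjusted p = 5.39e-06). Its enrichment of 1.73-fold was close in size to that of Insig1. Gm48342, on the opposite strand and with no row of its own in the table, shares 12.1% of its exon bases.

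The 250 bases before the RefSeq start of Srebf2, Hmgcs1 and Insig1 are shown because SREBPs act through short sterol response elements and E-boxes in such promoters. Capitals mark the core sterol response element TCACCCCA in Srebf2 (GRCm38.p6 chr15:82147019-82147268, plus strand) and Hmgcs1 (chr13:119690101-119690350, plus strand), and the E-box CACGTG in Insig1 (chr5:28071162-28071411, plus strand).
Srebf2: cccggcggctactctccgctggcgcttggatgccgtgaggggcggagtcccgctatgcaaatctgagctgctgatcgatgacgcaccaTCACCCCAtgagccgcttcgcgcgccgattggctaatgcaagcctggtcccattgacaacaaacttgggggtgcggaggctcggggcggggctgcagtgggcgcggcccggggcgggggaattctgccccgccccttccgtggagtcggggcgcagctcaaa
Hmgcs1: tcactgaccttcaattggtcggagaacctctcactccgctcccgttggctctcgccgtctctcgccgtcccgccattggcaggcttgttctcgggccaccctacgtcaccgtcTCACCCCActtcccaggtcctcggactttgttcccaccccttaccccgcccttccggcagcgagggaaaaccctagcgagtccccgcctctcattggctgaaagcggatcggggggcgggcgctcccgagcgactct
Insig1: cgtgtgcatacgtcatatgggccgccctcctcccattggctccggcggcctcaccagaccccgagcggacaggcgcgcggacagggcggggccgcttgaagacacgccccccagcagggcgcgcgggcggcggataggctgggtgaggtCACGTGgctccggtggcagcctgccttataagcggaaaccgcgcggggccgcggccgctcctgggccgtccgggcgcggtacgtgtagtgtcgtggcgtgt
TCACCCCA occurs in 1.56% of all 32851 promoter windows and CACGTG in 7.15%, with both strands searched. The long form of the sterol response element, which contains the core, occurs in 0.0913% of windows and in none of the 12 windows of the 7 genes. CACGTG also occurs in windows of Scap, and the windows of Insig2 hold only the CCAAT box, which occurs in 37.4% of all windows.

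Cyp46a1 encodes the neuronal hydroxylase that turns cholesterol into an oxysterol able to leave the brain (ENSMUSG00000021259, mm10 chr12:108334381-108362234, plus strand, protein coding). It had 45.2, 61.3, 41.6, 42.5 and 47.8 CPM in the astrocyte fraction, against 149.9, 226, 153, 158 and 192 CPM in the input. Every fraction library lay below every input library, and number 92 was the highest in both groups. The means were 47.7 ± 7.97 CPM in the fraction and 176 ± 32.8 CPM in the input (SD, n = 5 each), with a log2 fold change of -1.90 ± 0.15 (edgeR adjusted p = 5.85e-08). Within numbers the fraction held 0.248 to 0.302 of the input level, a proportionally narrower spread than that of Srebf1. The spreads of Srebf2 (1.31-fold to 1.52-fold) and Scap (1.47-fold to 1.72-fold) were narrower still.

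The low level of Cyp46a1 in the fraction stood beside low levels of neuronal genes. The 12 pan-neuronal markers had a median log2 fold change of -2.30, which is 20.2% of input, and ranged from -2.62 to -0.46. Of them, 11 had a lower log2 fold change than Cyp46a1. So did 9 of the 10 mature oligodendrocyte markers and 9 of the 10 microglia markers, so a fall of this size was not particular to neuronal genes. None of the 12 pan-neuronal markers was at 0 in any fraction library, and the part of neuronal RNA in the Cyp46a1 reads of the fraction was not tested. The promoter window of Cyp46a1 holds none of the sterol response element, E-box or DR4 letters on either strand, and the 250 bases before the start are shown (GRCm38.p6 chr12:108334066-108334315, plus strand).
Cyp46a1: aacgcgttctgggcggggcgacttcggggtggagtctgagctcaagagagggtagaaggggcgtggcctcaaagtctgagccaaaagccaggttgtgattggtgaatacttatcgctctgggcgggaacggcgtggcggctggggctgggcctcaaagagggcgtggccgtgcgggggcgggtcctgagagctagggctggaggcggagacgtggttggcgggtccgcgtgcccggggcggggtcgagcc
The core sterol response element occurs in 1.56% of all windows, the E-box in 7.15% and DR4 in 0.718%. Most windows therefore lack each of them, and those of Insig2 lack all of them too. The absence of these letters says nothing about factors that act elsewhere.

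**Figure D3:**
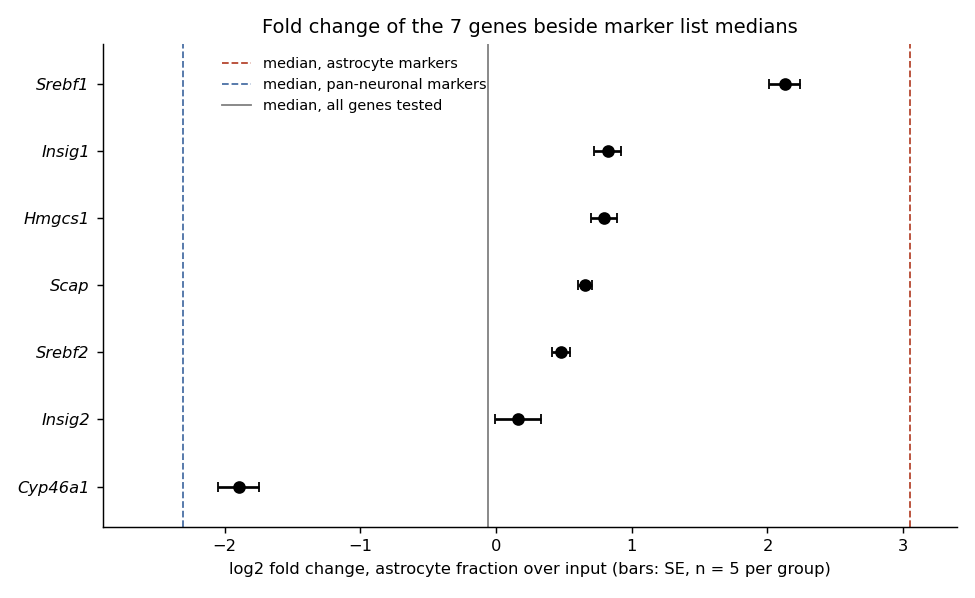
Log2 fold change of the astrocyte fraction over input for the 7 genes (points, bars SE, n = 5 per group), with the median of all tested genes (-0.06, grey line) and the medians of 12 astrocyte (3.05) and 12 pan-neuronal markers (-2.30, dashed lines). Srebf1 at 2.13 is nearest to the astrocyte marker median and Cyp46a1 at -1.90 to the neuronal one, with the other 5 genes between 0.16 and 0.82.

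Levels of different genes were compared per length, as CPM per kb of annotated exon. In the astrocyte fraction Hmgcs1 was highest at 101 ± 12.005 CPM per kb, followed by Srebf1 at 73.2 ± 12.6 and Insig1 at 70.9 ± 5.55, and the ranges of these neighbours overlapped (SD, n = 5). Srebf2 at 45.9 ± 3.71 CPM per kb and Scap at 22.1 ± 1.10 each stood clear of their neighbours. Insig2 at 14.8 ± 3.22 and Cyp46a1 at 14.5 ± 2.42 CPM per kb were lowest, and their ranges overlapped.

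In the input the order differed in the places of Srebf1 and Cyp46a1. Hmgcs1 at 58.1 ± 5.30, Cyp46a1 at 53.5 ± 9.97 and Insig1 at 40.04 ± 5.60 CPM per kb formed a run of overlapping neighbours (SD, n = 5). Srebf2 followed at 32.9 ± 1.97 CPM per kb, clear of both neighbours. Srebf1 at 16.8 ± 0.841 was next, and Scap at 14.03 ± 0.899 and Insig2 at 13.4 ± 0.849 CPM per kb overlapped. With the length of the longest transcript in place of all exons, Cyp46a1 came above Insig2 in the fraction (22.5 and 19.1 CPM per kb) and above Hmgcs1 in the input (83.02 and 77.1 CPM per kb), both pairs overlapping. With that length the input also had Srebf2 above Insig1 (46.6 and 45.9 CPM per kb, overlapping) and Scap above Srebf1 (24.7 and 21.95 CPM per kb, overlapping).

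**Figure D4:**
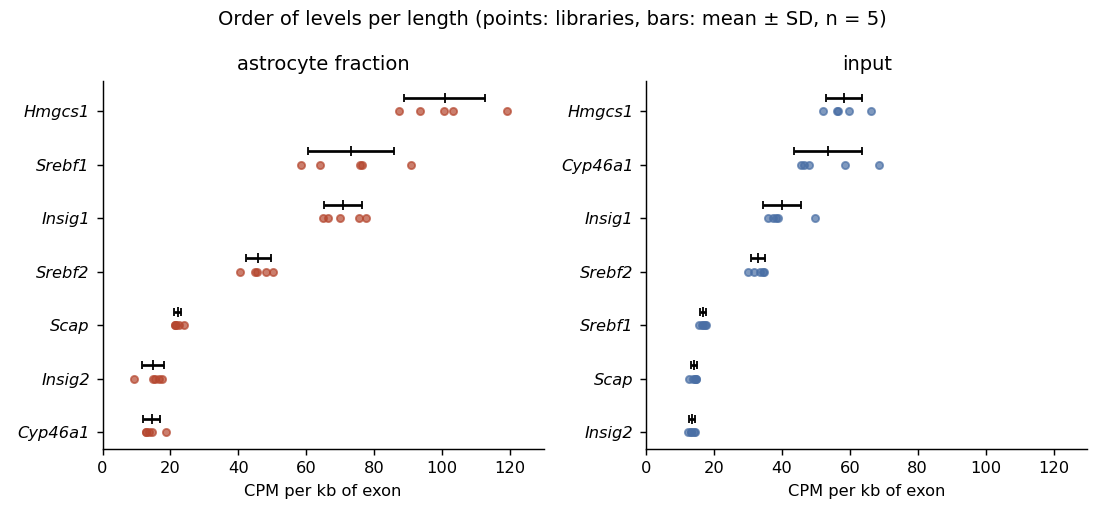
Levels of the 7 genes as CPM per kb of annotated exon in the astrocyte fraction (left) and the input (right), each ordered from the highest mean down; points are libraries and bars the mean ± SD (n = 5). Hmgcs1 leads both panels, Srebf1 has rank 2 in the fraction and rank 5 in the input, and Cyp46a1 has rank 7 in the fraction and rank 2 in the input.

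The genes whose profile over the 10 libraries was most like that of a member were named by the smallest root-mean-square difference of centred log2 CPM among 12115 genes with a mean of at least 5 CPM. For Srebf1 these were the lincRNA gene C030037D09Rik (0.0763) and Galnt10 (0.0870), for Srebf2 Stau1 (0.0664) and Gna11 (0.0666), and for Scap Smarcb1 (0.0653). For Hmgcs1 they were Klhl23 (0.0461) and Casc4 (0.0668), and for Insig1 Hint3 (0.0874) and Cggbp1 (0.0997). Eed (0.0665) and Plscr3 (0.0711) were nearest to Insig2, and like it did not pass the test. Cyp46a1 was nearest to Agtpbp1 (0.109) and to Chrnb2 (0.118), which encodes a subunit of the neuronal nicotinic acetylcholine receptor. On the opposite strand, Adar (log2 fold change -1.33) shares 16.3% of the exon bases of Chrnb2, and Tnk1 shares 28.3% of those of Plscr3. As profiles were centred over all 10 libraries, these distances include the difference between the groups.

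The enzymes of the cholesterol pathway other than Hmgcs1 were mostly higher in the fraction, with smaller steps than Srebf1. Of 20 tested, 12 were higher (33.1% of all tested genes were), 2 were lower (37.5% were) and 6 did not pass. The median log2 fold change of the 20 was 0.34, against -0.06 for all tested genes. With total count scaling 8 were higher and 6 lower. Msmo1, a methyl sterol oxidase, rose to 199 ± 21.9 CPM in the fraction, against 71.8 ± 6.08 CPM in the input (log2 fold change 1.47 ± 0.09, edgeR adjusted p = 1.12e-08). Mvd, the mevalonate pathway decarboxylase, had 51.9 ± 5.45 CPM in the fraction and 23.7 ± 2.32 CPM in the input (1.13 ± 0.09). Sc5d, a late desaturase, had 154 ± 22.7 CPM in the fraction and 73.4 ± 3.54 CPM in the input (1.07 ± 0.10). Idi1, the isomerase of the isoprene unit, had a log2 fold change of 1.20, Mvk, which phosphorylates mevalonate, of 0.96, and Cyp51, which removes a methyl group from lanosterol, of 0.63. Lbr, a sterol reductase that is also a nuclear envelope protein, fell to 5.77 ± 0.417 CPM in the fraction, against 12.3 ± 1.95 CPM in the input (-1.07 ± 0.12). Sqle, the squalene epoxidase, was not called (-0.04, adjusted p = 0.717). Myelin-forming cells also make much sterol, and the 10 mature oligodendrocyte markers summed to 989.7 to 1389 CPM in the fraction, against 6817 to 8265 CPM in the input, with Opalin at 0 in at least 1 fraction library; their part in these values was not tested.

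Genes of SREBP transport, cleavage and sterol-driven degradation were split. Of 19 tested, 9 were higher (33.1% of all tested genes were), 5 were lower (37.5% were) and 5 did not pass. The median of the 19 was 0.10 on the log2 scale, and with total count scaling 8 were higher and 9 lower. Sar1b, a GTPase of the COPII coat that carries cargo to the Golgi, had 98.6 ± 5.91 CPM in the fraction and 37.3 ± 1.92 CPM in the input (log2 fold change 1.40 ± 0.05, edgeR adjusted p = 1.50e-09), and Erlin2, a membrane scaffold, had a log2 fold change of 1.23 ± 0.06. Sec23a, a COPII coat subunit, fell to 58.1 ± 3.93 CPM in the fraction, against 90.2 ± 7.59 CPM in the input (-0.63 ± 0.07). The proteases that release SREBPs in the Golgi, Mbtps1 and Mbtps2, were both lower, with log2 fold changes of -0.28 (edgeR adjusted p = 0.0200) and -0.44 (adjusted p = 0.0164). Mbtps1 lost its call when fraction library 88 or 981 or input library 976, or both libraries of number 92, were left out (-0.25 to -0.21), and Mbtps2 lost its call without the numbers 976 and 982 (-0.45).

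The fatty acid genes that SREBP-1 is known to drive had the highest median of the 6 lists. All 14 passed the test, against 70.6% of all tested genes. Of the 14, 12 were higher (33.1% of all tested genes were) and 2 lower (37.5% were). The median of the 14 was 1.69 on the log2 scale. With total count scaling 10 were higher and 2 lower. Fads1 and Fads2 encode desaturases of polyunsaturated fatty acids. Fads1 rose to 2025 ± 175 CPM in the fraction, against 276 ± 6.27 CPM in the input (log2 fold change 2.87 ± 0.06, edgeR adjusted p = 5.08e-11), and Fads2 to 1037 ± 140.3 CPM, against 128 ± 3.86 CPM (3.02 ± 0.09). Mid1ip1, which promotes the activity of acetyl-CoA carboxylase, had 733 ± 66.7 CPM in the fraction and 165 ± 8.60 CPM in the input (2.15 ± 0.07), and 25.5% of its exon bases also belong to Gm14493 on the other strand. The desaturase gene Scd2 was the most abundant, at 8295 ± 1349 CPM in the fraction and 1964 ± 115 CPM in the input (2.08 ± 0.12). Fasn, the fatty acid synthase, had a log2 fold change of only 0.54 ± 0.23 (edgeR adjusted p = 0.0257), and its call was lost with total count scaling (0.25, adjusted p = 0.219), with a filter at a mean of 5 CPM (0.45, adjusted p = 0.0505), with limma on the authors' log2 values (0.52, adjusted p = 0.0575) and when fraction library 92 or 981 or input library 88, 976 or 982 was left out (0.45 to 0.53). Elovl6, which elongates saturated chains, fell to 39.5 ± 4.67 CPM in the fraction, against 95.4 ± 5.08 CPM in the input (-1.27 ± 0.09), and Acly, which makes cytosolic acetyl-CoA, had a log2 fold change of -0.55.

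The list of sterol efflux and LXR genes was mixed. Of 8 tested, 5 were higher (33.1% of all tested genes were), 2 were lower (37.5% were) and Rxrb did not pass. The higher genes were Abca1, Nr1h2, Nr1h3, Rxra and Mylip, of which only Abca1 encodes an efflux transporter. The median of the 8 was 0.60 on the log2 scale, and with total count scaling 4 were higher and 2 lower. Nr1h3, which encodes LXR alpha, rose to 14.7 ± 1.30 CPM in the fraction, against 3.24 ± 0.498 CPM in the input (log2 fold change 2.16 ± 0.12, edgeR adjusted p = 2.49e-08). Rxra, its partner receptor, had a log2 fold change of 1.12 ± 0.12. Abca1, the transporter that loads cholesterol onto lipoproteins, had 208 ± 45.0 CPM in the fraction and 43.6 ± 7.82 CPM in the input (2.25 ± 0.19). The other transporters of the list moved the opposite way, as Abcg1 fell to 10.8 ± 1.77 CPM in the fraction, against 69.9 ± 5.60 CPM in the input (-2.67 ± 0.11), and Abcg4 had a log2 fold change of -1.21.

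Enzymes that esterify or oxidise sterols moved in both directions. Of 10 tested, 5 were higher (33.1% of all tested genes were), 3 were lower (37.5% were) and 2 did not pass. The lower genes include Soat2 and Sult2b1, which were at 0 CPM in at least 1 fraction library and were in the table only through the input. The median of the 10 was 0.19 on the log2 scale, and with total count scaling 4 were higher and 3 lower. Ch25h and Akr1d1 have no row in the table and were not analysed here. Lcat, which esterifies cholesterol on lipoproteins, rose to 158 ± 21.4 CPM in the fraction, against 19.1 ± 2.33 CPM in the input (log2 fold change 3.04 ± 0.11, edgeR adjusted p = 1.92e-10). Cyp7b1, an oxysterol hydroxylase, had 57.3 ± 7.60 CPM in the fraction and 8.61 ± 0.841 CPM in the input (2.72 ± 0.11), so that this oxysterol enzyme and Cyp46a1 moved in opposite directions. Soat1, which makes cholesteryl esters inside cells, had a log2 fold change of 1.84 ± 0.10. Nceh1, a hydrolase of cholesteryl esters, fell to 39.0 ± 4.32 CPM in the fraction, against 127 ± 13.2 CPM in the input (-1.71 ± 0.10).

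Intracellular sterol carriers were split as well. Of 15 tested, 6 were higher, 5 were lower and 4 did not pass; their median was 0.09 on the log2 scale. With total count scaling the balance turned, to 4 higher and 7 lower. These shares lie near those of all tested genes, of which 33.1% were higher and 37.5% lower. Scp2, a sterol carrier of peroxisomes and cytosol, rose to 464 ± 33.0 CPM in the fraction, against 89.0 ± 5.77 CPM in the input (log2 fold change 2.38 ± 0.06, edgeR adjusted p = 6.59e-11). Npc2, which takes cholesterol out of lysosomes, had a log2 fold change of 2.13 ± 0.11, and its partner Npc1 of 0.35 (adjusted p = 0.00706), a call that was lost with total count scaling. Stard5 had a log2 fold change of 0.78 ± 0.14, and 22.0% of its exon bases are shared with Il16 on the opposite strand. Gramd1a, a carrier at contacts of the endoplasmic reticulum with the plasma membrane, fell to 31.3 ± 3.87 CPM in the fraction, against 106 ± 9.86 CPM in the input (-1.76 ± 0.10).

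**Figure D5:**
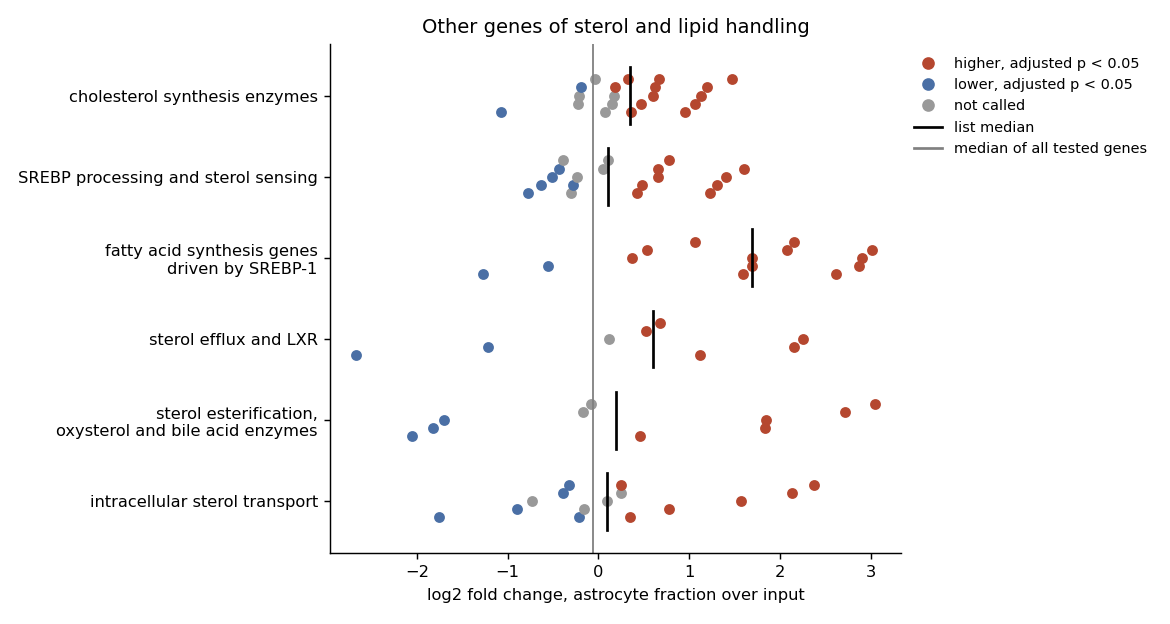
Log2 fold change of the astrocyte fraction over input for each tested gene of 6 lists of sterol and lipid handling (points coloured by the edgeR call), with each list's median (black) and the median of all tested genes (grey, -0.06). The fatty acid list lies furthest to the right, with a median of 1.69, and every list holds genes on both sides of the grey line.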

How the data were processed

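For each of 10 libraries the table deposited by the authors gives expected (estimated) counts and their own log2 normalized values. Libraries were made with the NEB Ultra II kit from polyA RNA and 25 ng of total RNA, per the labels' protocols. CASAVA 1.8, DESeq and mm10 are named, without roles, in the submitters' processing notes. The aligner, the counter and its strand setting were not given in the sources used here, which leaves overlapping genes uncertain. The expected counts, as deposited, are mostly not whole: 4.94% to 31.1% of a library's values come within 0.001 of one. The log2 values served only as an alternative.

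After rounding, counts went into edgeR 4.0.16 (R 4.3.3; TMM, filterByExpr with a minimum count of 10, robust quasi-likelihood test, prior count 2), group only, over 17672 genes; 792 were removed. The deposited table lists no gene with fewer than 5 counts in some library of each group, so lower genes were not analysed here. SEs come from log2 CPM of 5 libraries per group. Paralog ratios were tested by exact permutation. A count of 0 allows up to 3 counts, which is 0.880 CPM in fraction library 92, 0.120 to 0.136 CPM in the other fraction libraries and 0.0912 to 0.125 CPM in the input (counting error only). The biological coefficient of variation, common to all genes, was 0.229. The fit was tested on simulated data. It recovered 62.5% of changes of 1 on the log2 scale and 95.8% of changes of 2, with 2 false calls among 17357 genes. Only 96 genes were changed by 1 and 95 by 2 there, in both directions, while 70.6% of tested genes were called in the data. The recovery and the false calls thus hold for that setting and not for a comparison with so many changes. Genes that did not pass may therefore still differ.

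The title numbers were checked as a pairing: deviations from group means correlated between 0.189 and 0.493 for libraries of the same number and averaged -0.133 to -0.0478 with other numbers, so the numbers pair the libraries, as a check from the data. Alternatives included DESeq2 1.42.0, limma 3.58.1, other scalings and filters, the replicate block and each library left out. Lengths, transcripts and exon overlaps are from GENCODE M21, which holds 18430 of the table's IDs, 17163 with identical coordinates; promoters are from RefSeq (GRCm38.p6), matched by symbol for all 7 genes. The members, gene lists and tests were chosen with earlier results of these data known. Named genes are the members, Aldh1l1, up to 3 called genes per list with the smallest adjusted p in the main direction and 1 in the other, and the 2 nearest profiles of each member; other names were chosen after their values were seen. Values of 3 genes that this rule or the lists would name are not reported here.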

Additional observations from a re-analysis of the deposited data

Results flagged for a closer look

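Each group of 5 libraries was checked for a highest or lowest library set far apart from the rest, over 68 groups of values, and 5 were found; chance alone gives about 1 in 20 groups. Insig1 had 154 CPM in input library 981, against 111 to 120.0 CPM in the other input libraries. Sc5d had 79.6 CPM in the same library, against 71.0 to 72.9 CPM in the other input libraries. Fads2 had 121 CPM in input library 982, below the 128 to 131 CPM of the other input libraries. The log2 ratio of Insig1 to Insig2 was 2.89 in fraction library 92, against 1.72 to 2.05 in the other fraction libraries. The same ratio was 1.85 in input library 981, against 1.24 to 1.34 in the other input libraries.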

How the results depend on the processing

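Under 19 alternatives the log2 fold changes of Srebf1 (1.84 to 2.27), Srebf2 (0.19 to 0.59), Scap (0.37 to 0.74), Insig1 (0.53 to 0.92), Hmgcs1 (0.50 to 0.94) and Cyp46a1 (-2.18 to -1.76) kept their direction and call. Insig2 reversed to -0.12 with total count scaling, was called at 0.30 (adjusted p = 0.00419) without both libraries of number 92, and ranged from 0.13 to 0.28 when 1 library was left out. Eed and Plscr3 also reversed with total count scaling, to -0.12 and -0.048; of 741 values of other named genes, 735 kept direction and call. The number of cholesterol synthesis enzymes called lower was 6 with total count scaling, 1 without the filter on low counts, 1 without both libraries of number 92, 1 without the numbers 976 and 982, and 1 to 2 when 1 library was left out. Genes of SREBP processing called lower numbered 9 with total count scaling, and sterol esterification enzymes called lower numbered 1 with a filter at a mean of 5 CPM, which tests fewer genes. The cause of the other changes was not tested. With the title number as a replicate block, Insig2 had 0.15 (adjusted p = 0.331) and no member changed its call; the paired differences of 1.63 (Srebf1 over Srebf2) and 0.72 (Insig1 over Insig2) had adjusted p = 0.0625 by exact sign flips, the smallest possible. Depth limits fraction library 92 most, and leaving out 1 library decided the Insig2 call.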

Other observations

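The 20 listed cholesterol synthesis enzymes with Hmgcs1 and Insig1 are a set put together after the values were seen, and Hmgcs1 and Insig1 were already known to be highest in input library 981, so the counts below are a description. Input library 981 was the highest of 5 input libraries for 15 of the 22 genes and the lowest for 0, with a median of 0.17 on the log2 scale above the group median; over all tested genes it was the highest for 18.8% and the lowest for 20.1%. Number 976, which also stands apart by Ttr (11036 CPM in the fraction and 2965 CPM in the input), was more often the lowest than any other number in both groups, within this set. Its fraction library was the lowest for 11 of the 22 genes, against 20.3% of all tested genes, and its input library for 12 of the 22, against 19.4%. Fraction library 92 was the highest for 7 and the lowest for 7 of the 22, and over all tested genes the highest for 27.8% and the lowest for 37.9%. The part of choroid plexus RNA or depth in these counts was not tested.

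Some listed genes had fraction means below what a count of 0 allows in fraction library 92, which is 0.880 CPM, among them Soat2, Sult2b1 and Gramd1c of the sterol lists and the microglia marker Aif1. Soat2, the esterifying enzyme of gut and liver, had 0.0966 ± 0.120 CPM in the astrocyte fraction and 0.609 ± 0.0837 CPM in the input (SD, n = 5 each). Sult2b1, a sterol sulfotransferase, had 0.564 ± 0.329 CPM in the astrocyte fraction and 2.94 ± 0.379 CPM in the input. Both were lower in the fraction by the edgeR test, with log2 fold changes of -1.82 and -2.06. Each was at 0 CPM in at least 1 fraction library, so it was in the table only through the input. A gene listed that way could hardly be seen as other than lower, so no conclusion is drawn from these calls.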
